A study of Mus musculus with 72 samples.

Results

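The genes described here are 10 members of the machinery that shortens the poly(A) tail of mRNA, chosen by symbol from the 51826 genes of the count files. Of these, 6 encode adaptors (*Zfp36*, *Zfp36l1*, *Zfp36l2*, *Btg1*, *Tob1* and *Tob2*) and 4 encode subunits of the CCR4-NOT deadenylase complex (the scaffold *Cnot1* and the nucleases *Cnot6*, *Cnot7* and *Cnot8*). They were followed in unmodified mouse embryonic stem cells of the line E14TG2a, grown in 2i + LIF medium. The cells took up the uridine analog 4-thiouridine (4sU) for 15, 20, 30, 40, 60 or 120 min and were separated into nucleus, cytosol and membrane fraction, with whole cells (labelled total) kept beside them. Each of these 4 kinds of sample gave 18 poly(A)-selected libraries, 72 in all. The labeling times 15, 20 and 30 min were done in replicates 1 and 2, the times 20, 40, 60 and 120 min in replicates 3 and 4, and in replicates 5 and 6 only 60 and 120 min, so that the replicate pair and the labeling time are partly bound together. The sample labels give 500 µM 4sU up to 40 min and 100 µM at 60 and 120 min, whereas the study's methods also list the higher dose for longer labeling, without naming replicates. The dose was therefore not compared. Unlabeled libraries were not analysed here.

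Removal of the poly(A) tail is usually the first step in the decay of a cytoplasmic mRNA. The CCR4-NOT complex does much of it: *Cnot1* encodes the large scaffold, *Cnot7* and *Cnot8* encode related nucleases of the Caf1 type, and *Cnot6* encodes a nuclease of the Ccr4 type. Adaptors bring the complex to particular mRNAs. *Zfp36* (tristetraprolin) and its paralogs *Zfp36l1* and *Zfp36l2* encode zinc finger proteins that bind AU-rich elements in 3′ untranslated regions and contact CNOT1, while *Btg1*, *Tob1* and *Tob2* encode proteins of the BTG/TOB family that bind the Caf1 nucleases. Through such adaptors, mRNAs of growth factor and immediate early response genes are kept short-lived, and *Zfp36* mRNA is itself known to be bound by its own protein.

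After alkylation, 4sU that was incorporated during labeling appears as C where T stood, and the share of new RNA of a gene is the ratio of such T2C mutations to T positions, divided by the conversion rate of the library. It is about 1 when all RNA is new, and counting error and the estimated rate can carry it above 1. Without new RNA it is near 0 rather than 0, since sequencing errors also give T2C mutations and no background was subtracted. How near the lowest early shares lie to this floor was not tested, as unlabeled libraries were not analysed. Between 13185351 and 52975732 reads per library fell on genes. All 10 genes had at least 1551 exonic T counts in every library, and the lowest number of T2C counts behind a share was 7 for *Zfp36* and 31 for *Cnot1*. The conversion rate was 5.83 to 12.2% in replicates 3 and 4 at 60 and 120 min and 2.38 to 3.99% in replicates 5 and 6 at those times. Embryonic stem cell markers were present (10 of 10), and the summed level of the fibroblast markers, for feeder cells, lay between 0.0402 and 9.05 CPM per kb (read counts scaled to the library size and the exon length) over all fractions, against 1781 to 8780 for the stem cell markers. Summed nuclear markers (3 RNAs) had a median of 111 CPM per kb in the nucleus, 46.5 in the membrane fraction and 20.9 in the cytosol. For 6 membrane markers these medians were 505, 2796 and 138, and for 5 cytosolic markers 1597, 2189 and 2957. Each list was thus highest in its own fraction, with a part in the others. Carry-over between fractions was not tested and limits comparisons of levels and shares between them. In whole cells replicate 6 went against its labels: the median share of all genes was 0.391 in the library labelled 60 min and 0.182 in that labelled 120 min, against 0.223 and 0.408 in replicate 5. The study set aside samples with long labeling at the higher dose without naming libraries. The 8 libraries of replicates 3 and 4 at 120 min, whose labels give the lower dose, may be among them given their conversion rates, and this was not tested. Results that rest on these 8 libraries or on whole-cell replicate 6 were recomputed without them, and the values are given beside the main ones or by replicate.

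The adaptor genes are short and the subunit genes are longer. In GRCm38 *Zfp36* spans chr7:28376784-28380253 on the minus strand, *Zfp36l1* chr12:80107754-80113013 (minus), *Zfp36l2* chr17:84183931-84187947 (minus), *Btg1* chr10:96617006-96622809 (plus), *Tob1* chr11:94211454-94215495 (plus) and *Tob2* chr15:81848272-81858796 (minus). The subunits are *Cnot1* at chr8:95719451-95807464 (minus, 88.0 kb), *Cnot6* at chr11:49671503-49712723 (minus, 41.2 kb), *Cnot7* at chr8:40492540-40515847 (minus, 23.3 kb) and *Cnot8* at chr11:58104153-58118594 (plus, 14.4 kb). *Cnot7* overlaps *Vps37a* and *Zdhhc2* on the opposite strand, whose counts were 40.8% and 19.1% of its own over all libraries. *Cnot6* contains the pseudogene *Gm12191* on its own strand, with 3.78% of its count. The libraries keep the strand, but the methods do not spell out the strand setting of the counting, naming only default parameters in a sentence on 2 programs, so that values of *Cnot7* are less certain than those of the other members.

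The AU-rich elements that the Zfp36 proteins bind were looked up in the annotated 3′ untranslated regions (GENCODE vM21, sense strand only), because they show which members carry the recognition site of the family. The nonamer TTATTTATT occurred 1 time each in *Zfp36*, *Zfp36l1* and *Zfp36l2* and in 0 of the 6 other members with a complete 3′ untranslated region. *Cnot8*, whose annotated mRNA end is incomplete, was left out. Of 10263 genes with a 3′ untranslated region and a measured cytosolic share, 7.47% held the nonamer and 69.5% held the pentamer ATTTA, which lies inside it. Below, capitals mark the nonamer in the first 3 windows of 25 bases and the pentamer in the other 2, and *Tob1* and *Cnot1* are shown as a member of each role without a nonamer.
Zfp36: tgacgactTTATTTATTgtattaag
Zfp36l1: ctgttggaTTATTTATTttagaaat
Zfp36l2: tatttaacTTATTTATTatcttgtg
Tob1: ttgtataATTTAATTTAgtacaaag
Cnot1: cttggccaaaATTTAgaagatgctg
The windows lie at chr7:28376953-28376977 (*Zfp36*, minus), chr12:80108169-80108193 (*Zfp36l1*, minus), chr17:84184916-84184940 (*Zfp36l2*, minus), chr11:94215055-94215079 (*Tob1*, plus) and chr8:95720198-95720222 (*Cnot1*, minus). Pentamers were not restricted to adaptors. There were 13 in the 3690 bases of *Cnot6*, 11 in the 4166 bases of *Btg1*, 9 in *Zfp36l1*, 5 in *Zfp36l2*, 4 each in *Tob2* and *Cnot7*, 3 each in *Zfp36* and *Tob1*, and 1 in the 956 bases of *Cnot1*. The match of letters is a description of the sequence and was not tested as a binding site.

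New RNA replaced old RNA of the adaptors much faster than RNA of the subunits. In the cytosol at 20 min, the median share of the 6 adaptors was 0.193, that of the 4 subunits 0.0200 and that of all genes 0.0206 (medians over 4 libraries). At 60 min they were 0.663, 0.152 and 0.144, and at 120 min 0.956, 0.299 and 0.319, or 0.972, 0.379 and 0.385 in replicates 5 and 6 alone. Every adaptor lay above every subunit in each of the 72 libraries, and in 62 of 62 libraries without the 120 min libraries of replicates 3 and 4 and the whole-cell libraries of replicate 6. The median of the subunits was near that of all genes, but its members lay on both sides: *Cnot8* was above the median of all genes in 72 of 72 libraries, *Cnot6* in 65, *Cnot7* in 27 and *Cnot1* in 4. The 6 adaptors were above it in 72 of 72.

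**Figure D1:**
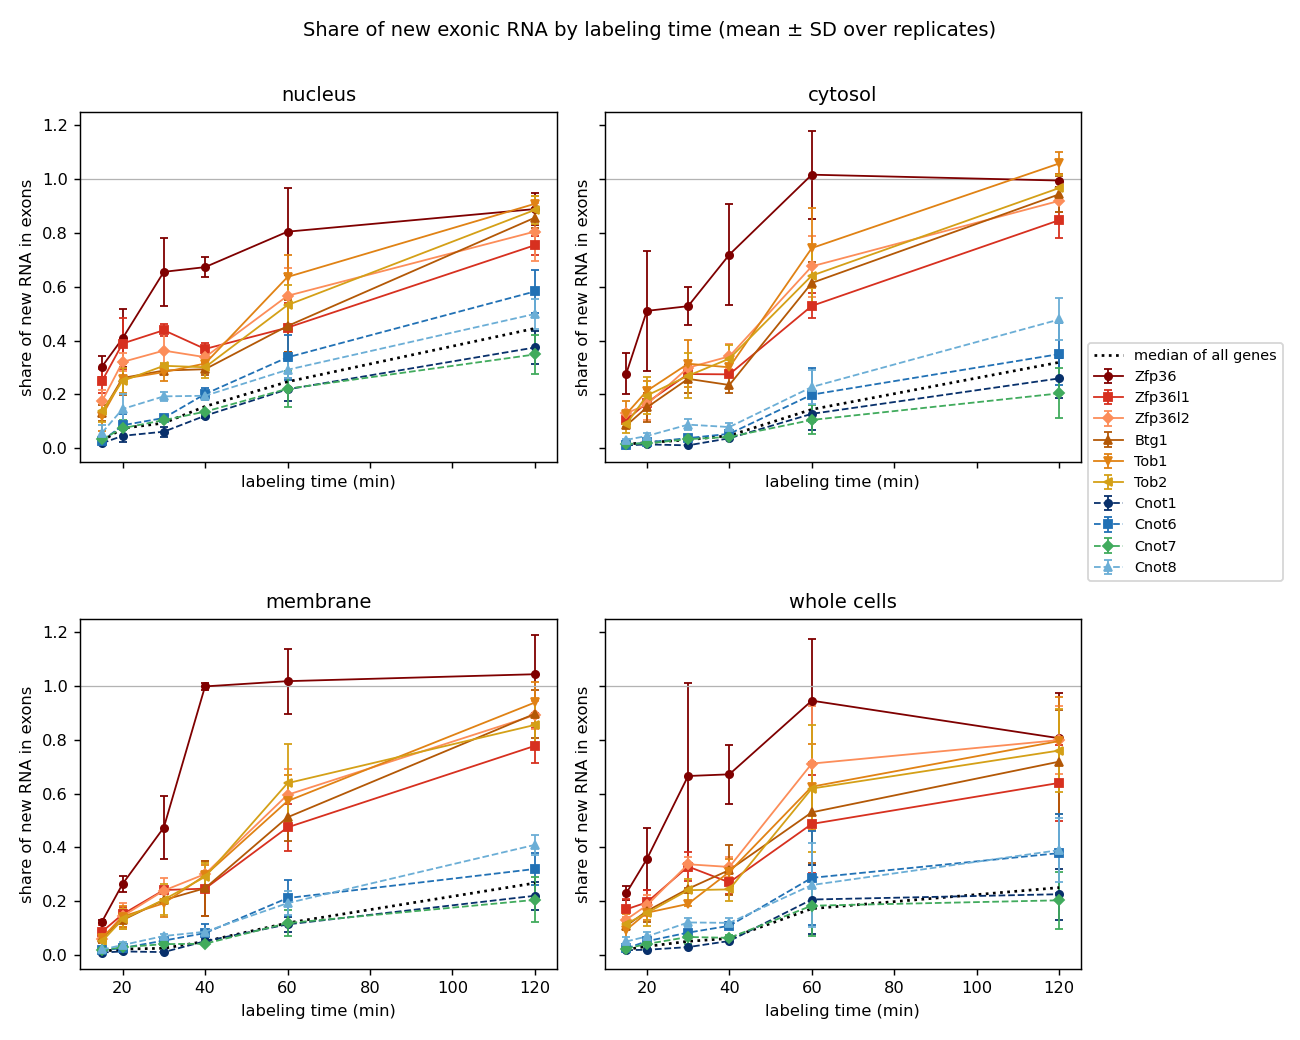
Share of new RNA in exons (vertical axis) against labeling time in min (horizontal axis) in each fraction for the 6 adaptors and the 4 subunits, with the median of all genes as a reference. In the cytosol the adaptors reach a median of 0.956 at 120 min, and the subunits stay at 0.299, near the 0.319 of all genes.

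*Zfp36* had the highest cytosolic share of the members at 20 min in replicates 1 to 3 and at 60 min in replicates 3 to 6. At 20 min in replicate 4 *Tob1*, *Btg1* and *Tob2* were higher, and at 120 min *Tob1* was higher in 4 of 4 replicates. The share of *Zfp36* at 20 min was 0.738, 0.578, 0.517 and 0.208 in replicates 1 to 4, at 60 min it was 1.03, 0.783, 1.11 and 1.15 in replicates 3 to 6, and at 120 min it was 0.982, 1.01, 1.02 and 0.967. The cytosolic RNA of this gene was thus replaced almost completely by 60 min in 3 of 4 replicates, and replicate 4 was lowest at 20 and at 60 min. Its paralogs followed later: *Zfp36l1* had shares of 0.200, 0.169, 0.165 and 0.143 at 20 min and 0.860, 0.754, 0.863 and 0.912 at 120 min. *Zfp36l2* had 0.109, 0.246, 0.156 and 0.140 at 20 min and 0.874, 0.891, 0.950 and 0.961 at 120 min. The ranges of these paralogs overlapped at 20 min, and that of *Zfp36l1* lay below that of *Zfp36* at 20 and at 120 min.

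The BTG/TOB adaptors also started between the subunits and most *Zfp36* values. *Tob1* had cytosolic shares of 0.212, 0.190, 0.183 and 0.266 at 20 min and 1.02, 1.02, 1.10 and 1.09 at 120 min, and so lay at or above full replacement in 4 of 4 replicates at the end, with no overlap with *Zfp36l1* or *Zfp36l2*. *Tob2* had 0.280, 0.142, 0.135 and 0.226 at 20 min and 1.03, 0.920, 0.966 and 0.948 at 120 min. *Btg1*, which encodes an antiproliferative protein of the same family, had 0.131, 0.147, 0.0994 and 0.229 at 20 min and 0.912, 0.864, 0.992 and 1.005 at 120 min. These 3 genes overlapped one another at 20 min. Over the 72 libraries the median rank of the share, counted in percent of all genes from the lowest, was 98.3 for *Zfp36* and between 93.2 and 95.4 for the other adaptors, and 98.4 and between 93.2 and 95.2 over the 62 libraries.

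Among the subunits the cytosolic share was highest for *Cnot8* and lowest for *Cnot1* or *Cnot7*. *Cnot8* had 0.0465, 0.0501, 0.0281 and 0.0564 at 20 min and 0.438, 0.390, 0.527 and 0.558 at 120 min. *Cnot6* had 0.0213, 0.0221, 0.0230 and 0.0197 at 20 min and 0.269, 0.253, 0.374 and 0.502 at 120 min. The lower end was close: *Cnot7* reached 0.131, 0.116, 0.278 and 0.290 at 120 min and *Cnot1* reached 0.230, 0.167, 0.322 and 0.317. The ranges of *Cnot1*, *Cnot6* and *Cnot7* overlapped at 120 min, and each was lower in replicates 3 and 4 than in replicates 5 and 6. The paralogs *Cnot7* and *Cnot8*, which encode nucleases of the same type, did not overlap at 20 or at 120 min. The median rank over the 72 libraries was 69.5 for *Cnot8*, 60.4 for *Cnot6*, 46.1 for *Cnot7* and 37.8 for *Cnot1*, and the order was the same over the 62 libraries (70.8, 60.4, 48.3 and 37.8).

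To put this on a time scale, an exponential rise after a delay of 5 min was fitted to the shares of each replicate pair, which gives the time at which 50% of the RNA is new. In the cytosol this replacement time was 17.3 ± 9.9 min for *Zfp36* (SD, n = 3 pairs), 40.0 ± 15.0 min for *Tob1*, 46.3 ± 10.8 min for *Zfp36l2*, 47.2 ± 12.5 min for *Tob2*, 53.4 ± 16.6 min for *Btg1* and 56.2 ± 7.5 min for *Zfp36l1*. *Zfp36* had rank 20 from the shortest of 12255 genes, and *Zfp36l1*, the slowest adaptor, had rank 331. The ranges over the pairs of the other 5 adaptors overlapped one another. The subunits needed 163 ± 46.5 min (*Cnot8*), 300 ± 170 min (*Cnot6*), 448 ± 188 min (*Cnot7*) and 599 ± 518 min (*Cnot1*), beside a median of 367 min over all genes. *Cnot6*, *Cnot7* and *Cnot1* could not be put in order, since their ranges over the pairs overlapped. The fit used the same delay for every gene and no separate step in the nucleus. The study's model also adds a delay that grows with the distance to the 3′ end. Adaptor genes are shorter than subunit genes, and the effect of gene length on the fitted times was not tested.

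The fitted time depended on the pair. For *Cnot1* it was 1186 min from replicates 1 and 2, 402 min from replicates 3 and 4 and 208 min from replicates 5 and 6, and for *Tob1* it was 51.7, 45.2 and 23.1 min. The median of all genes went the same way, with 525, 322 and 179 min, so that the pair and its labeling times cannot be told apart. Times beyond the longest labeling of a pair are extrapolations. In replicates 1 and 2, labeled for at most 30 min, this holds for every member except *Zfp36*, in replicates 3 and 4 for the 4 subunits, and in replicates 5 and 6 for *Cnot1*, *Cnot6* and *Cnot7*. For *Zfp36* the 6.1 min of replicates 5 and 6 rest on libraries that were already fully replaced at 60 min. The median over the members was 46.7 min for adaptors and 374 min for subunits, and it lay between 45.2 and 49.3 min and between 361 and 389 min when 1 replicate at a time was left out. Without the 120 min libraries of replicates 3 and 4 the times were 17.3 min for *Zfp36*, 42.3 to 57.9 min for the other adaptors and 179, 323, 451 and 640 min for *Cnot8*, *Cnot6*, *Cnot7* and *Cnot1*, beside 394 min for all genes.

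**Figure D2:**
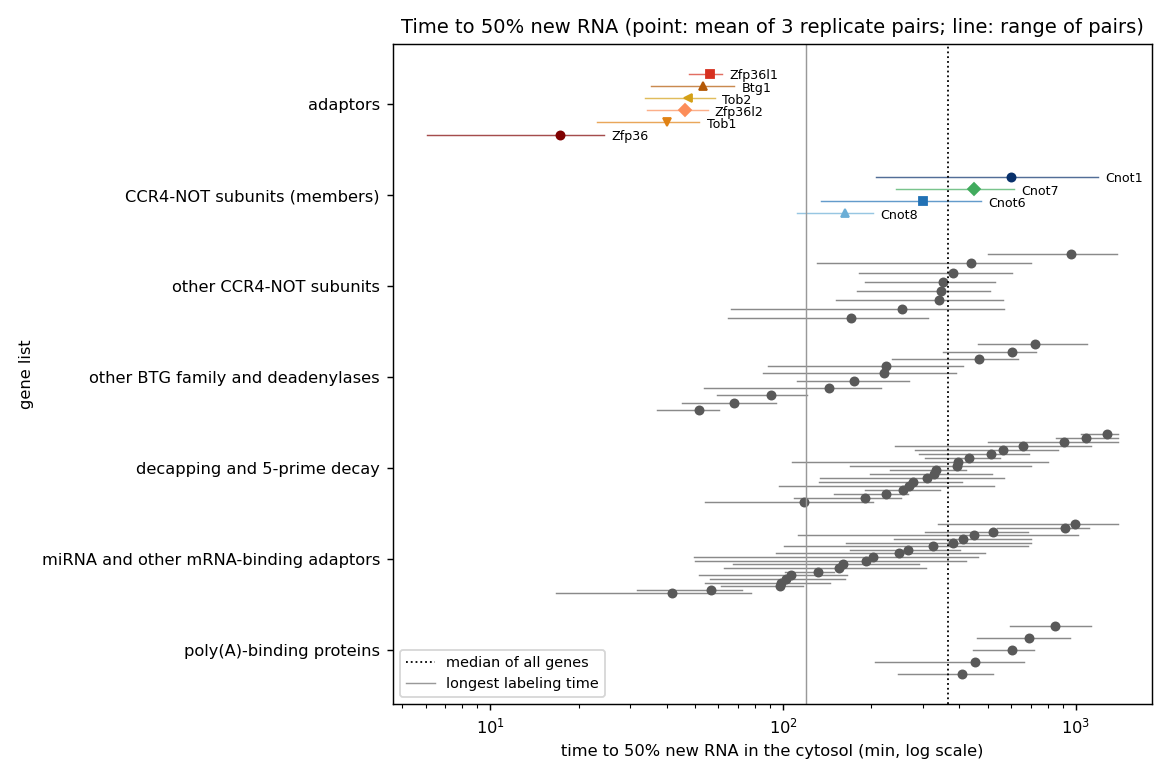
Time to 50% new RNA in the cytosol in min on a log axis (points, mean of 3 replicate pairs, and lines, range of the pairs) for the members and for other genes of mRNA decay by list. The adaptors lie between 17.3 and 56.2 min, and the subunits between 163 and 599 min.

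The order was similar in the other fractions. In the membrane fraction the replacement time was 21.1 ± 15.6 min for *Zfp36*, between 56.1 and 64.8 min for the other adaptors and 201 ± 59.9 min for *Cnot8*. In the nucleus it was 28.4 ± 7.2 min for *Zfp36*, between 47.0 and 55.4 min for the other adaptors, and 109, 121, 178 and 216 min for *Cnot8*, *Cnot6*, *Cnot7* and *Cnot1*, beside a median of 172 min over all genes. Subunits thus had shorter mean times in the nucleus than in the cytosol, and *Zfp36* had its shorter mean time in the cytosol, differences that were not tested. Without the 120 min libraries of replicates 3 and 4 the nuclear times were 28.3 min for *Zfp36*, 46.4 to 58.0 min for the other adaptors and 106 to 213 min for the subunits, and in the membrane fraction 21.2 min, 57.6 to 68.3 min and 216 to 645 min.

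How soon new RNA was seen in the cytosol relative to the nucleus was tested at 20 min, where cultures of replicates 1 to 4 gave a nuclear and a cytosolic library each. The nuclear share was higher in all 4 subunits and in 2 of 6 adaptors (limma on log2 of share + 0.01, adjusted p under 0.05 and a log2 difference over 0.5), and lower in 0 of 10, where 47.6% of 12377 genes were called higher and 0.113% lower. The log2 difference was 1.57 ± 0.377 for *Cnot7* (SE, adjusted p = 0.00987, limma), 1.49 ± 0.378 for *Cnot6*, 1.46 ± 0.352 for *Cnot8* and 1.15 ± 0.374 for *Cnot1*. Nuclear shares were 0.0590, 0.0449, 0.114 and 0.0796 for *Cnot7*, above the cytosolic share in 4 of 4 cultures, as were all subunits, *Zfp36l1*, *Zfp36l2* and *Btg1*, where 65.2% of 11461 genes were above in 4 of 4. *Zfp36l1* (1.13 ± 0.251) and *Zfp36l2* (0.99 ± 0.281) also passed. Their nuclear shares of 0.294 to 0.522 and 0.277 to 0.353 did not overlap the cytosolic ones.

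The other adaptors did not pass the test at 20 min. The log2 difference was -0.22 ± 0.377 for *Zfp36* (adjusted p = 0.626, limma), 0.26 ± 0.255 for *Tob1*, 0.38 ± 0.300 for *Tob2* and 0.77 ± 0.318 for *Btg1*, against a median of 1.16 over all genes. The ratio of *Btg1* was above 1 in 4 of 4 cultures, from 1.30 to 3.12. For *Zfp36* the nuclear shares were 0.257, 0.446, 0.511 and 0.418, and the cytosolic share was higher in 3 of 4 cultures. For *Tob1* the nuclear shares of 0.264, 0.189, 0.319 and 0.257 overlapped the cytosolic ones. With shares centred on the median of each library, *Tob1* was called lower in the nucleus (-1.05) and no other member was called, where 2.10% of genes were called higher and 5.03% lower. Without replicate 4, 0 of 10 members were called, and within pairs the differences were larger in replicates 3 and 4 than in replicates 1 and 2 for all 10 (for *Cnot7* 2.23 against 0.90).

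After 120 min the mean difference was below 0 for all 6 adaptors, with none passing the test. The log2 difference of nuclear and cytosolic share was then between -0.22 (*Tob1*, ± 0.0748, adjusted p = 0.0545, limma) and -0.13 (*Tob2*) for them, against a median of 0.37 over all genes. Shares are divided by the conversion rate of each library. At 120 min this rate was 10.4, 12.2, 3.81 and 3.96% in the nucleus in replicates 3 to 6. In the cytosol it was 8.83, 11.4, 3.26 and 3.36%. The effect of these rates on the difference was not tested. *Tob1* had nuclear shares of 0.929, 0.935, 0.880 and 0.888, below each of its cytosolic values. The nuclear share was below the cytosolic share in 4 of 4 cultures for *Zfp36*, *Zfp36l1*, *Tob1* and *Tob2* and in 3 of 4 for *Zfp36l2* and *Btg1*, where 8.05% of 11461 genes were below in 4 of 4. *Cnot6* was the only member called (0.76 ± 0.233, adjusted p = 0.0372, limma, 20.0% of 12325 genes called higher and 1.16% lower), with nuclear shares of 0.621, 0.468, 0.649 and 0.591. *Cnot7* (0.83 ± 0.325) and *Cnot1* (0.54 ± 0.257) stayed above 0 in 4 of 4 cultures without passing, and *Cnot8* was at 0.07 ± 0.178.

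Centring on the library median moved these differences with all genes, and the 6 adaptors were then called lower at 120 min (11.2% of genes called higher and 17.9% lower), between -0.69 and -0.60. Without the 120 min libraries of replicates 3 and 4, with 2 cultures left, limma called 0 of 13653 genes, although 4495 had an unadjusted p under 0.05. The mean log2 differences of these remaining replicates 5 and 6 were between -0.30 and -0.06 for the adaptors and 0.51 for *Cnot6*. Blocking on the culture, which is shared by the 2 fractions, called 2 members, both higher.

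**Figure D3:**
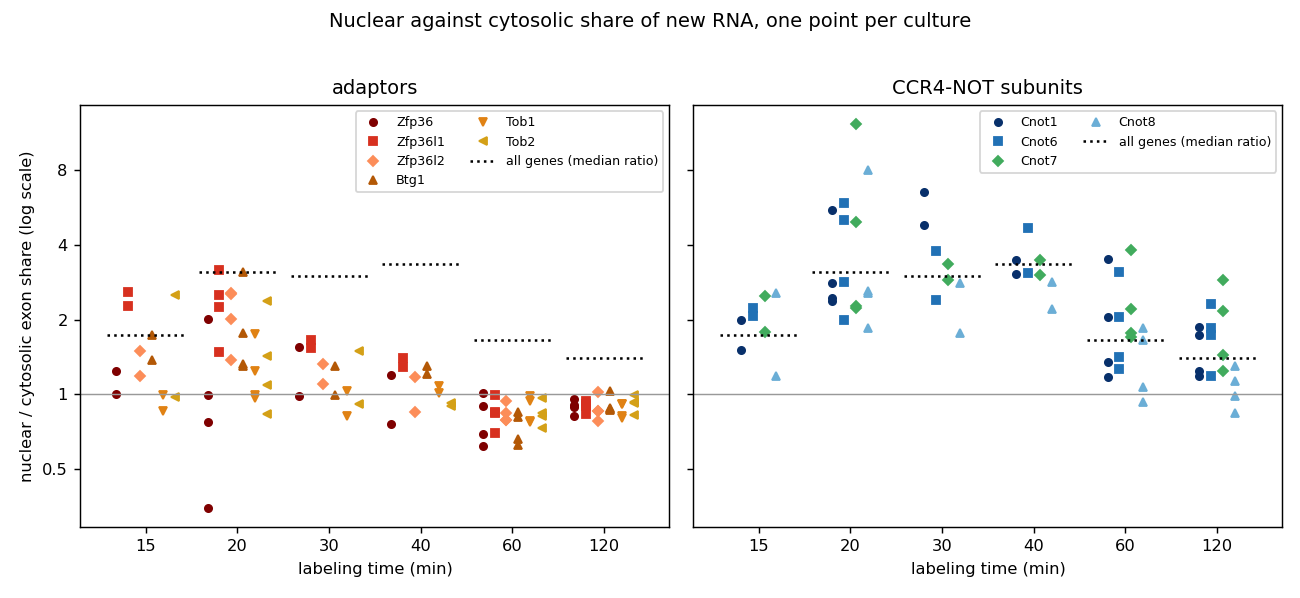
Nuclear over cytosolic share of new RNA (vertical axis, log scale) against labeling time in min (horizontal axis), with 1 point per culture, for adaptors and subunits. The ratio of *Zfp36l1* lies between 1.47 and 3.16 at 20 min and between 0.83 and 0.934 at 120 min.

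The change between the early and the late ratio was tested itself, with an exact two-sided permutation test of 4 cultures at 20 min against 4 at 120 min, whose smallest p is 0.0286. As both shares rise towards 1, their ratio moves towards 1 for any gene, and the test cannot separate this from other changes. Some replicates gave cultures at both times and others did not, whereas the test treats all cultures as independent. Replicate pairs also differed at 20 min. For *Cnot7* the log2 ratio was 0.90 in replicates 1 and 2 and 2.23 in replicates 3 and 4. The labelled 4sU dose differed between the times as well. *Zfp36l1* fell from a log2 ratio of 1.13 ± 0.444 (SD, n = 4, exact permutation test) to -0.16 ± 0.0742, a difference of -1.30 (p = 0.0286). *Zfp36l2* (-1.19), *Btg1* (-0.90), *Tob1* (-0.47) and *Cnot8* (-1.39) reached the same smallest p, as did 32.7% of 11461 genes, and after adjustment over all genes it was 0.0874 for each of them, above the threshold. *Cnot1* changed by -0.61, *Cnot6* and *Cnot7* by -0.73 each and *Tob2* by -0.51, with p between 0.0857 and 0.200 (exact permutation test), and *Zfp36* by 0.06 (p = 0.8). The mean log2 ratio of *Zfp36* was below 0 at both times, but at 20 min the replicate pairs went opposite ways. It was then -0.93 in replicates 1 and 2 and 0.48 in replicates 3 and 4, with ratios of single cultures from 0.348 to 2.01. With only replicates 5 and 6 at 120 min, where the smallest p is 0.0667, the differences were -1.33 for *Zfp36l1*, -1.16 for *Zfp36l2* and -1.59 for *Cnot8* (p = 0.0667 each, exact permutation test), -0.97 for *Btg1* and -0.56 for *Tob1* (p = 0.133 each) and -0.003 for *Zfp36*.

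The membrane fraction held a lower share than the cytosol at early times for *Tob1*. Over the 8 cultures of 15 to 30 min the ratio of the membrane to the cytosolic share was between 0.420 and 0.903 with a median of 0.649, below 1 in 8 of 8. *Zfp36* had a median ratio of 0.556 and was below 1 in 6 of 8. *Cnot6* and *Cnot7*, in contrast, had medians of 1.35 and 1.45 and were below 1 in 1 of 8 cultures, where the ratio of the medians of all genes was 0.931. At 60 min no member was called between membrane and cytosol (3.15% of 12522 genes called, limma), and differences lay between -0.37 (*Tob1*, adjusted p = 0.805) and 0.21 (*Cnot7*).

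Introns were labeled sooner than exons in the nucleus. At 20 min the intron share was higher in 7 of 7 members with at least 400 intronic T counts in every library, where 85.6% of 11282 genes were called higher, and the difference was largest for *Cnot1* (log2 3.16 ± 0.412, adjusted p = 4.7e-06, limma). *Zfp36l2* and *Btg1* did not reach that number. *Zfp36* had 0 intronic T counts in every library, as its annotated exons together form 1 block over the whole span of 3.47 kb. Any unspliced RNA of *Zfp36* would thus count as exonic, and the effect on its shares and levels was not tested. Introns of *Cnot1* had shares of 0.327, 0.402, 0.610 and 0.573 at 20 min and of 1.03, 0.971, 0.984 and 0.979 at 120 min. *Zfp36l1*, with a single intron, was faster: its intron share was 0.500 ± 0.0188 (SD, n = 2) at 15 min and 0.876 ± 0.0535 (n = 4) at 20 min, when its exon share was 0.389 ± 0.096. *Tob1* introns were at 1.03 ± 0.155 (n = 4) at 20 min. The median of all genes at 20 min was 0.297.

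Reads counted as *Cnot6* introns had lower shares than those of the other subunits at 120 min, in the nucleus and in the cytosol. Their nuclear share was 0.786, 0.599, 0.467 and 0.420 in replicates 3 to 6 at 120 min, with a mean of 0.568 ± 0.164, against 0.941 for the median of all genes and 0.857 to 0.992 for the means of *Cnot1*, *Cnot7* and *Cnot8*. The exon share of *Cnot6* in the same libraries was 0.582 ± 0.0803. The means are near each other because replicates went both ways: introns were above exons in replicates 3 and 4 and below them in replicates 5 and 6. In the cytosol at 120 min the intron share of *Cnot6* was 0.117 ± 0.0332, against 0.883 for the median of all genes. The means of *Cnot1*, *Cnot7* and *Cnot8* there were 0.547 to 0.916. Intronic T counts of *Cnot6* were at least 70508 in these cytosolic libraries and at least 46905 in the nuclear ones. Where these reads come from, the pseudogene *Gm12191* on the same strand included, was not tested.

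Within 3 of the 4 subunit genes, exons near the 3′ end had higher shares than the rest when averaged over times. Exons outside the last 25% of the gene span had a lower nuclear share than those inside it in 6 of 6 replicates for *Cnot6* (mean log2 -0.49), *Cnot7* (-0.68) and *Cnot8* (-0.69), with p = 0.0313 each, the smallest that the exact sign-flip permutation test over 6 replicates allows, and 0.0437 after adjustment over 8177 genes. The same held for 70.5% of these genes, with a median of -0.85. *Cnot1* was lower in 5 of 6 (-0.70, p = 0.0625, exact permutation test, adjusted 0.0775). The ratio of the rest of *Cnot1* to its 3′ end was 0.100 to 0.344 at 20 min, 0.830 to 0.957 at 60 min and 1.07 to 1.20 at 120 min, so that the rest was below the 3′ end at 20 and 60 min and above it at 120 min. *Cnot6* was the other way at 15 min, with ratios of 1.29 and 1.38 in its 2 libraries, and between 0.265 and 0.514 at 20 min. Without the 120 min libraries of replicates 3 and 4 the means were -0.54, -0.75, -0.75 and -0.78 for *Cnot6*, *Cnot7*, *Cnot8* and *Cnot1*, lower in 6, 6, 6 and 5 of 6 replicates.

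**Figure D4:**
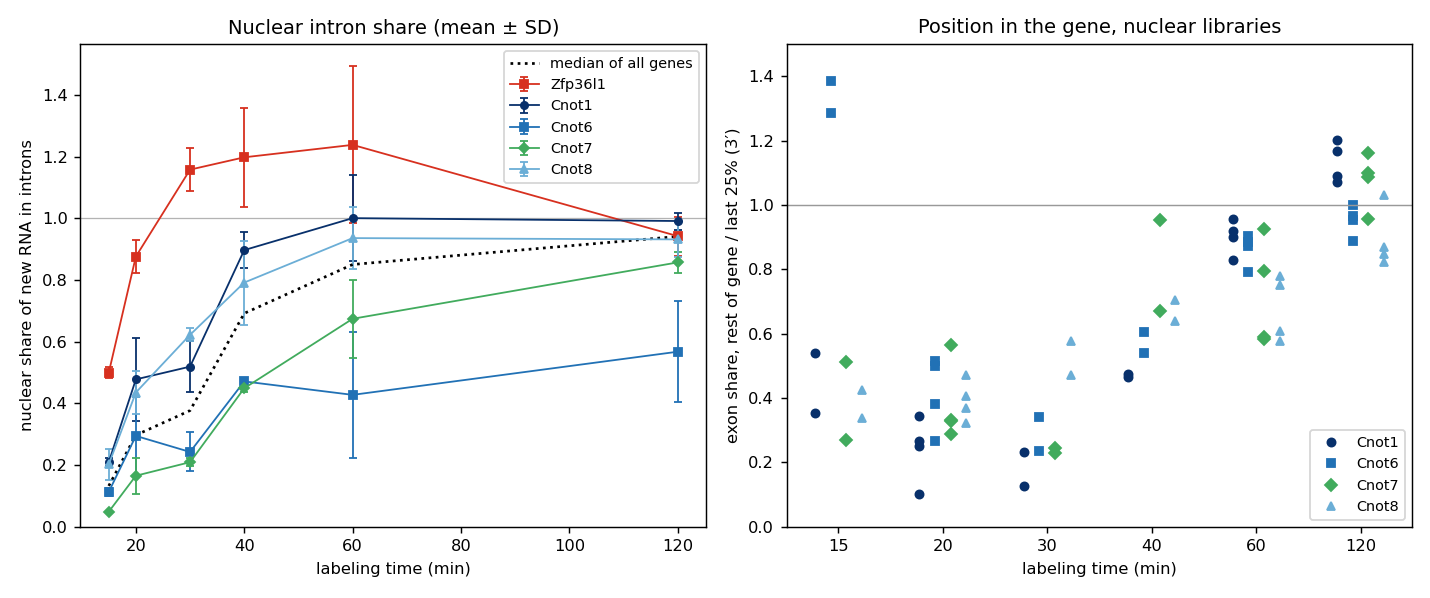
Left, nuclear share of new RNA in introns (mean ± SD) against labeling time in min, with the median of all genes dotted. Right, ratio of the nuclear exon share in the rest of the gene to that in the last 25% at the 3′ end, by labeling time, for the 4 subunits. *Cnot1* rises from 0.100 to 0.344 at 20 min to 1.07 to 1.20 at 120 min.

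Levels of the members spanned both roles, and their order depended on the scaling by length. The exon length used joins all annotated exons of a gene: 17169 bases for *Cnot1*, 2990 for *Zfp36l1* and 2636 for *Cnot8*. Without scaling by length, *Cnot1* was highest in whole cells (351 ± 85.2 CPM), before *Cnot6* (142 ± 71.7) and *Zfp36l1* (84.5 ± 25.0). *Cnot8* was then at 71.7 ± 9.19 CPM, and *Zfp36* was lowest (6.27 ± 1.71). In whole cells the level per exon length was highest for *Zfp36l1* (28.3 ± 8.35 CPM per kb, SD, n = 18) and *Cnot8* (27.2 ± 3.48), followed by *Cnot6* (21.5 ± 10.8), *Cnot1* (20.4 ± 4.96), *Tob1* (13.2 ± 3.69) and *Cnot7* (12.5 ± 2.61). Levels of *Zfp36l2* (6.36 ± 2.53), *Btg1* (5.17 ± 1.08), *Tob2* (2.93 ± 0.664) and *Zfp36* (1.81 ± 0.494) were lower. Neighbours in this order differed by less than the larger of their SDs from *Zfp36l1* to *Cnot1*, between *Tob1* and *Cnot7*, and between *Zfp36l2* and *Btg1*. The fastest member, *Zfp36*, was thus also the one with the lowest level, at 50 to 214 reads per whole-cell library. Over the 14 whole-cell libraries without replicate 6 and without the 120 min libraries of replicates 3 and 4, levels ran from 29.9 (*Zfp36l1*), 27.6 (*Cnot8*), 23.3 (*Cnot6*) and 19.7 CPM per kb (*Cnot1*) down to 1.90 (*Zfp36*).

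Between nucleus and cytosol 5 of the 10 members differed in level (edgeR, adjusted p under 0.05 and absolute log2 fold change over 0.5, 16194 genes), where 67.1% of genes were called, 35.4% higher and 31.7% lower in the nucleus. *Btg1* was lower in the nucleus (log2 -0.71 ± 0.108, SE, edgeR adjusted p = 1.78e-08), as were *Cnot8* (-0.55 ± 0.0692) and *Cnot7* (-0.50 ± 0.104). *Btg1* had between 17 and 32.0 CPM in the nucleus with a median of 23.3, and between 24.2 and 50.8 CPM in the cytosol with a median of 41.7. The ratio was below 1 in 18 of 18 cultures for *Btg1* and *Cnot8* and in 16 of 18 for *Cnot7*. *Cnot6* (0.65 ± 0.194, adjusted p = 0.00182, edgeR) and *Tob2* (0.51 ± 0.115) were higher in the nucleus, in 17 and 12 of 18 cultures. Relative abundance per library is meant throughout, and fewer cells or less RNA in a fraction cannot be told apart.

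These differences varied with the scaling and the replicate pair. With relative log expression size factors the median of all genes moved from near 0 to 0.18, and *Tob2*, *Cnot6* and *Btg1* were called. Signs of *Btg1*, *Cnot7*, *Cnot8*, *Cnot6* and *Tob2* held under all 12 alternatives, and those of *Zfp36* (-0.03), *Zfp36l1* (-0.27) and *Zfp36l2* (0.13) did not. Within pairs the median log2 ratio of *Tob2* was -0.17 in replicates 1 and 2, 1.08 in replicates 3 and 4 and 0.42 in replicates 5 and 6, and that of *Cnot7* was -0.02, -0.85 and -0.38. For *Cnot6* it was 1.01, 0.29 and 0.13, over 0.5 only in replicates 1 and 2. *Cnot8* was steadier, with -0.59, -0.54 and -0.39. Without the 120 min libraries of replicates 3 and 4 only *Tob2* and *Cnot6* were called. Without replicate 1 the 3 lower calls were lost and *Tob2*, *Cnot6*, *Cnot1* and *Zfp36l2* were called higher, and with counts summed per replicate only *Btg1* and *Cnot8* were called, both lower.

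In the membrane fraction *Tob1* was higher than in the cytosol (0.54 ± 0.128, adjusted p = 1.64e-04, edgeR, above 1 in 17 of 18 cultures) and *Cnot7* was lower (-0.53 ± 0.104, adjusted p = 7.28e-06, in 18 of 18), where 37.9% of genes were called, 24.4% higher and 13.5% lower. *Tob1* ranged from 17.7 to 59.4 CPM in the membrane fraction with a median of 34.0 and from 15.8 to 35.2 CPM in the cytosol with a median of 25.4. Without replicate 2 *Tob1* had 0.39 and was not called. *Cnot6* was below the cytosol in 18 of 18 cultures (-0.43 ± 0.193, not called), and *Zfp36* had -0.48 ± 0.116, just inside the limit on the fold change, and was called lower under 7 of 12 alternatives. Without the 120 min libraries of replicates 3 and 4 *Tob1* (0.50) and *Cnot7* (-0.53) were still called.

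**Figure D5:**
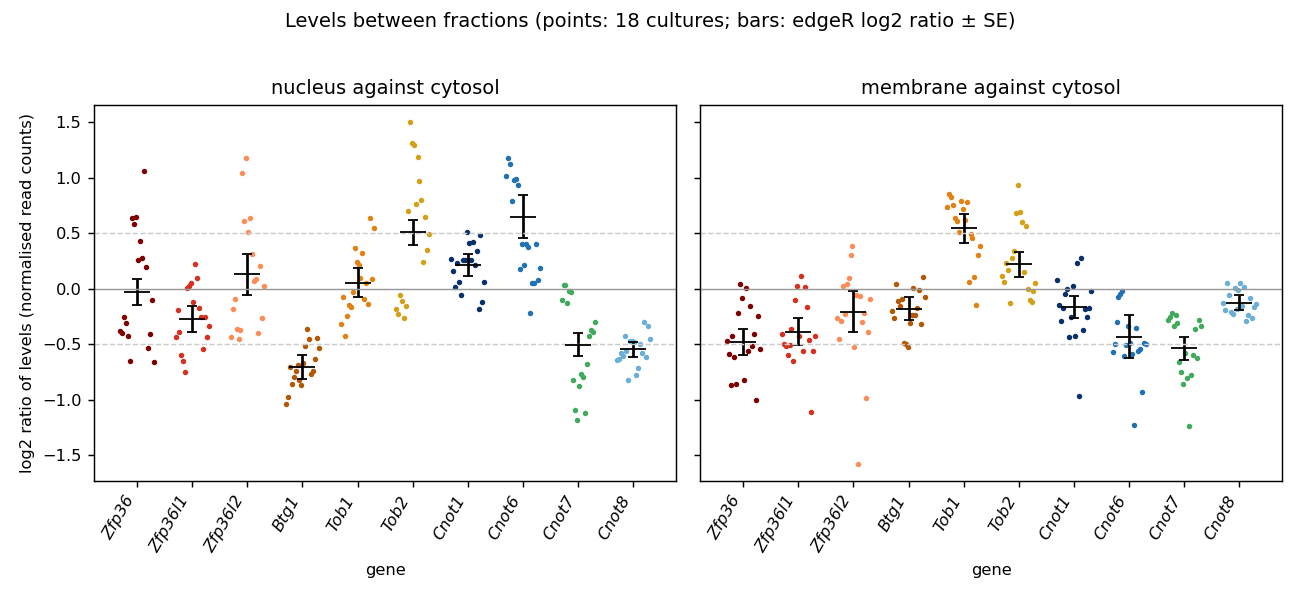
Log2 ratio of levels (normalised read counts, vertical axis) for each member, nucleus over cytosol and membrane over cytosol, with 18 cultures as points and the edgeR log2 ratio ± SE as bars. Every culture of *Btg1* and *Cnot8* lies below 0 between nucleus and cytosol, and every culture of *Cnot6* and *Cnot7* lies below 0 between membrane and cytosol.

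Whether the levels themselves moved while 4sU was taken up was asked within replicate pairs. By the sample labels, the 20 min libraries had the higher 4sU dose and those at 60 and 120 min the lower dose. Comparisons with 20 min thus change the labelled dose together with time. The effect of the dose was not tested, and differences from 20 min cannot be assigned to time alone. Of the 10 members, 0 were called in whole cells between 60 and 20 min or 120 and 20 min (replicates 3 and 4) or 120 and 60 min (replicates 5 and 6), where edgeR called 0, 0.113 and 0% of 16858 genes, with 747 and 123 genes at an unadjusted p under 0.05 in the comparisons with 0 calls. In the nucleus, 0 members were called as well, where 0, 2.91 and 0% of 17810 genes were called in the 3 comparisons, with 3454 and 348 genes at an unadjusted p under 0.05 in those with 0 calls. In simulated data the whole-cell test at 120 against 20 min recovered 73 of 200 genes changed by a log2 of 1. A level without a call may thus still have moved. The nuclear level of *Cnot6* was 282.5 and 180 CPM at 20 min, 195 and 105 CPM at 60 min and 142 and 100.1 CPM at 120 min in replicates 3 and 4, a log2 difference of -0.93 ± 0.305 between 120 and 20 min (adjusted p = 0.0956, edgeR). It was called lower there with a replicate block, with no filter on low counts and with DESeq2. Replicates also differed at 1 time, with 417, 283, 282.5 and 180 CPM in the nucleus at 20 min in replicates 1 to 4, and replicates 5 and 6 were at 98.0 to 117 CPM at 60 and 120 min.

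Other genes of mRNA decay were followed by list, and the lists were not tested against each other. Among 8 other CCR4-NOT subunits the median cytosolic replacement time was 348 min, from 171 ± 128 min for *Cnot6l*, a paralog of *Cnot6*, to 960 ± 443 min for *Cnot10*, and 0 of 8 were at or under 120 min. The 18 decapping and 5′ decay factors had a median of 363 min (1 at or under 120 min, *Dcp1a* with 118 ± 77.0 min), and the 5 poly(A)-binding proteins and their partners 606 min. Over all genes 13.3% were at or under 120 min. Of 10 measured genes of the BTG family and other deadenylases, most of them enzymes, 3 were, with *Btg2*, the paralog of *Btg1*, at 51.4 ± 12.5 min, and of 20 measured miRNA and other mRNA-binding adaptors 6 were, with the endonuclease *Zc3h12a* (Regnase-1) at 41.6 ± 31.9 min. The medians of these lists were 198 and 197 min, beside 367 min over all genes.

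The nuclear share at 20 min was higher than the cytosolic one in 4 of 8 other CCR4-NOT subunits, 6 of 10 other BTG and deadenylase genes, 13 of 18 decapping genes, 14 of 21 mRNA-binding adaptors and 3 of 5 poly(A)-binding genes, and lower in 0 of each list, where 47.6% of all genes were higher. Levels between nucleus and cytosol were called in both directions, beside 35.4% higher and 31.7% lower over all genes: 1 higher and 3 lower of 8 CCR4-NOT subunits, 3 and 1 of 10 BTG and deadenylase genes, 2 and 9 of 18 decapping genes, 9 and 3 of 23 mRNA-binding adaptors and 2 and 2 of 5 poly(A)-binding genes. *Tnks1bp1* had the largest nuclear excess of the CCR4-NOT list (log2 2.90 ± 0.187, edgeR) and *Cnot9* the largest deficit (-1.28 ± 0.0693). In the other lists the extremes were *Angel1* (1.95) and *Pde12* (-0.64), *Edc4* (1.10) and *Lsm6* (-1.51), *Ago3* (1.42) and *Elavl1* (-1.18), and *Pabpn1* (1.10) and *Paip2* (-1.30).

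The genes whose share pattern was most like that of *Zfp36* over the 72 libraries, after removing the median of each library, were *Txnip* (Pearson r = 0.92), *Ier2* (r = 0.92) and *Socs3* (r = 0.91) among 11461 genes. Their cytosolic shares at 20 min were 0.371 ± 0.0117, 0.235 ± 0.00918 and 0.273 ± 0.0321 (SD, n = 4), against 0.510 ± 0.222 for *Zfp36*. For *Cnot1* they were *Washc4* (r = 0.73), *Ankhd1* (r = 0.71) and *Usp24* (r = 0.71), with shares between 0.0125 and 0.0206 against 0.0139. These correlations describe libraries that share time, conversion rate and depth.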

How the data were processed

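SLAM-seq libraries of E14TG2a cells were grouped by fraction and labeling time from the sample labels. Paired reads were aligned by the authors with STAR 2.7.6 (GRCm38). Deposited are unnormalized read counts of genes (HTSeq 0.11.1) and, as counts too, T positions and T2C mutations in exons, genes and introns. As a fraction, the authors deposited each library's conversion rate, and the deposited ratio of T2C to T, divided by this rate, is the share; recomputed here, it differed by at most 2.4e-13. No background was subtracted. Rows naming no gene (6.26 to 35.9% of uniquely aligned reads) were left out. Intervals from counts were not used, and replicate spread is given instead.

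Levels were tested by the quasi-likelihood test of edgeR 4.0.16 (R 4.3.3, TMM scaling, low counts removed by filterByExpr, Benjamini-Hochberg adjustment), with DESeq2 1.42.0 as an alternative, all 72 libraries together between fractions and 18 libraries per fraction between times. Where a gene had 400 or more T counts in each library compared, its shares were tested with limma 3.58.1 (trend) on log2(share + 0.01), 4 libraries against 4. The limits of a call were 0.05 on the adjusted p and 0.5 on the log2 difference, in either direction. Replacement times were least-squares fits per replicate pair, with 1391 min as the longest time allowed. Genes named are the 10 members, the extremes of 5 lists of mRNA decay genes and the 3 genes most like *Zfp36* and *Cnot1*. Members and lists were chosen with earlier results of these data known.

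The edgeR and limma scripts were tested on simulated data with known changes. Of 200 genes changed by a log2 of 1, edgeR recovered 173 between nucleus and cytosol, with 11 false calls. In whole cells at 120 against 20 min it recovered 73 of 200, with 3 false calls. For shares at 20 min, limma recovered 161 of 200 genes shifted by a log2 of 3, with 4 false calls. Smaller shifts of shares were not simulated. Fractions of 1 replicate and time come from the same culture, which pairs them. Their deviations from the group means correlated at 0.111 to 0.526 for nuclear and cytosolic levels, 0.774 to 0.823 for membrane and cytosolic levels, 0.00114 to 0.0611 for shares at 20 min, 0.0985 to 0.311 at 120 min and 0.119 to 0.166 for membrane shares at 60 min. The study's methods call the replicates independently passaged, the labels give no days, and p-values measure the spread between these samples.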

Additional observations from a re-analysis of the deposited data

Results flagged for a closer look

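Single libraries far from the other 3 of their group were looked for in 240 groups of 4 (Dixon's test at its 95% limit), and 12 were found, 5 in shares and 7 in levels, where chance gives about 1 in 20. Among shares, *Zfp36* in whole cells at 60 min was at 1.29 in replicate 5 against 0.815 to 0.856, and *Zfp36l2* in the nucleus at 120 min was at 0.966 in replicate 5 against 0.744 to 0.762. *Cnot1* in whole cells at 120 min was at 0.368 in replicate 5 against 0.168 to 0.196, a group that holds the whole-cell library of replicate 6 that went against its label. *Cnot6* in the nucleus at 60 min was at 0.213 in replicate 4 against 0.374 to 0.386, and *Cnot7* in whole cells at 20 min at 0.0631 in replicate 3 against 0.0319 to 0.0365.

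Among levels, *Tob2* was named 4 times: 30.9 CPM in the nucleus at 60 min (others 21.5 to 22.8), 33.9 CPM in the nucleus at 120 min (23.7 to 25.4) and 23.4 CPM in the membrane fraction at 60 min (17 to 17.5), each in replicate 4, and 14.0 CPM in whole cells at 20 min in replicate 1 (23.3 to 23.8). *Zfp36* had 7.20 CPM in the nucleus at 120 min in replicate 4 (5.91 to 6.08), *Zfp36l1* 49.9 CPM in the membrane fraction at 20 min in replicate 3 (76.9 to 82.0), and *Cnot8* 68.6 CPM in whole cells at 60 min in replicate 3 (73.9 to 74.7).

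The nuclear to cytosolic share of *Zfp36l1* moved by -1.30 on the log2 scale from 20 to 120 min without passing after adjustment (exact permutation test, 4 against 4 cultures, p = 0.0286, the smallest possible, and 0.0874 after adjustment over all genes). The ratio was above 1 in 4 of 4 cultures at 20 min and below 1 in 4 of 4 at 120 min. *Cnot8* (-1.39), *Zfp36l2*, *Btg1* and *Tob1* reached the same p, as did 32.7% of all genes. The limits of this test that were given with the result above apply here too.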

How the results depend on the processing

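Of 978 values of single members under alternatives, 894 kept their side of the threshold (47 of them with the other sign, called under neither), 24 became called, 50 lost the call and 10 that were called under at least 1 setting reversed, all 10 after centring shares on the library median. These were *Zfp36l1* (-0.18), *Zfp36l2* (-0.32), *Tob1* (-1.05) and *Cnot1* (-0.16) between nucleus and cytosol at 20 min, and *Zfp36l1* (-0.88), *Tob1* (-0.094), *Tob2* (-0.28), *Cnot6* (-0.36), *Cnot7* (-0.99) and *Cnot8* (-0.48) between introns and exons, where centring by construction sets the median of all genes near 0. The median cytosolic replacement time of the adaptors stayed below that of the subunits under every alternative run. A single fit over all libraries lowered the subunits' time by over 1.5 times, from 374 to 246 min, with 45.5 min for the adaptors.

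For levels between nucleus and cytosol, 5 members were called (2 higher, 3 lower), and 3 (2 and 1) with relative log expression size factors or DESeq2, 2 (2 and 0) without the 120 min libraries of replicates 3 and 4 and 2 (0 and 2) with counts summed per replicate. Leaving out 1 replicate gave 3 to 5, with 4 higher and 0 lower without replicate 1. *Zfp36* was called lower between membrane and cytosol under 7 of 12 alternatives. Recomputations beside results of the report without the 120 min libraries of replicates 3 and 4 or whole-cell replicate 6 were mostly chosen after seeing the data. The cause was not tested for this and the other values that moved. With no filter on low counts, calls between times rose to 42 (60 against 20 min), 227 (120 against 20 min) and 49 (120 against 60 min) in whole cells and to 956, 1242 and 80 in the nucleus. DESeq2 gave 113 in whole cells at 120 against 20 min, and 227 and 975 in the nucleus at 60 and at 120 against 20 min. In the nucleus 1 member (*Cnot6*, lower) was called against 20 min under these settings, except with DESeq2 at 60 min. In comparisons with 20 min the labelled 4sU dose changes together with time. Leaving out 1 replicate gave 0 to 0 in whole cells at 120 against 20 min, and 0 to 1359 and 290 to 565 in the nucleus at 60 and 120 against 20 min.

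Between times the replicate number is shared by only 2 libraries a group. The replicate block called 31 genes in whole cells at 120 against 20 min and 1070 and 1803 in the nucleus at 60 and at 120 against 20 min, with 1 member (*Cnot6*) each. Between fractions the block on the culture gave 2 members for shares at 120 min and 831 genes between membrane and cytosol at 60 min, and moved no other count by over 1.5 times.

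For shares at 20 min, 5910 genes and 6 members were called, against 3114 and 3 with untransformed shares, 882 (260 higher, 622 lower) and 1 when centred, and 1585 to 6250 and 0 to 6 without 1 replicate, the lowest without replicate 4. At 120 min, 2611 genes and 1 member were called, against 1678 and 0 with a minimum of 100 T counts, 2 members with a minimum of 2000, 6 members when centred (1382 genes higher, 2203 lower), 0 and 0 without the libraries of replicates 3 and 4 (chosen after seeing the data), and 46 to 2175 and 0 to 1 without 1 replicate, the lowest without replicate 4. For introns, centring gave 4747 genes (2181 higher, 2566 lower) and 3 of 7 members (1 higher, 2 lower). Between membrane and cytosol at 60 min, 395 genes became 126 untransformed, 1084 centred (287 higher, 797 lower) and 0 to 250 without 1 replicate.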
